A study of Mus musculus with 6 samples.

Results

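The Fraser complex genes and the nephronectin pair were followed in mouse tissue from below and above the embryonic aorta. The set was taken by gene symbol and held Fras1, Frem1, Frem2, Frem3, Grip1, Npnt and Itga8, which are 7 of 24973 probe sets on the array. Ventral tissue (3 arrays), cut from beneath the dorsal aorta, was set against dorsal tissue (3 arrays), cut from between the notochord and the aortic roof. Both came from the same C57Bl/6 embryos at embryonic day 11.5, for which the labels name no transgene or treatment, in a series on the niche of blood stem cells under the aorta. Unfixed cryosections were laser microdissected, 200 to 1000 pg of RNA was amplified, and the product was hybridised to Affymetrix whole-transcript arrays. The labels call the arrays biological replicates but do not say how many embryos or sections went into each, so p-values measure only the spread between these arrays. The 7 genes were chosen by these same log2 values, with the ventral and dorsal levels in view, so their differences between the tissues are given as a description and not as tests.

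Fras1, Frem1 and Frem2 encode very large extracellular proteins with chondroitin sulfate proteoglycan core repeats, which assemble into a complex just beneath the basement membrane of embryonic epithelia. Grip1 is an intracellular scaffold with PDZ domains that brings Fras1 and Frem2 to the basal cell surface. Mouse mutants of Fras1, Frem1, Frem2 and Grip1 form epidermal blisters and often lack kidneys, and loss of the human genes FRAS1, FREM2 or GRIP1 causes Fraser syndrome. Nephronectin (Npnt) is a basement membrane protein that binds integrin α8β1, and Itga8 encodes the α8 subunit. Nephronectin and α8β1 are needed in the mouse for Gdnf expression and outgrowth of the ureteric bud.

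Among the 7 genes, Fras1 stood out with 3.28-fold higher levels in ventral tissue, and Npnt was also higher, with all ventral arrays above all dorsal arrays for both, although all dorsal Npnt values lay below the level used as a filter. Itga8 and Frem1 did not separate the tissues: each was lower on ventral array 1 than on every other array, and higher on ventral arrays 2 and 3 than on every dorsal array. Frem2 and Grip1 overlapped between the tissues. Frem3 lay below that filter level, the median of all probe sets (4.52 on the log2 scale), so 6 of the 7 genes were among the 12028 genes fitted with limma. Of these 6 genes 1, Fras1, passed an adjusted p of 0.05 over all fitted genes, as did 0.515% of all genes in either direction and 0.308% in the ventral direction. The log2 difference between tissues was positive for 5 of the 6 and negative for 1. Its median was 0.51 over the 6 and −0.01 over all fitted genes. Npnt passed the filter only through its ventral values, so these counts and the median describe the 6 genes and support nothing. Because the tissues are bulk samples, fewer cells of a type and less RNA per cell cannot be told apart.

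**Figure D1:**
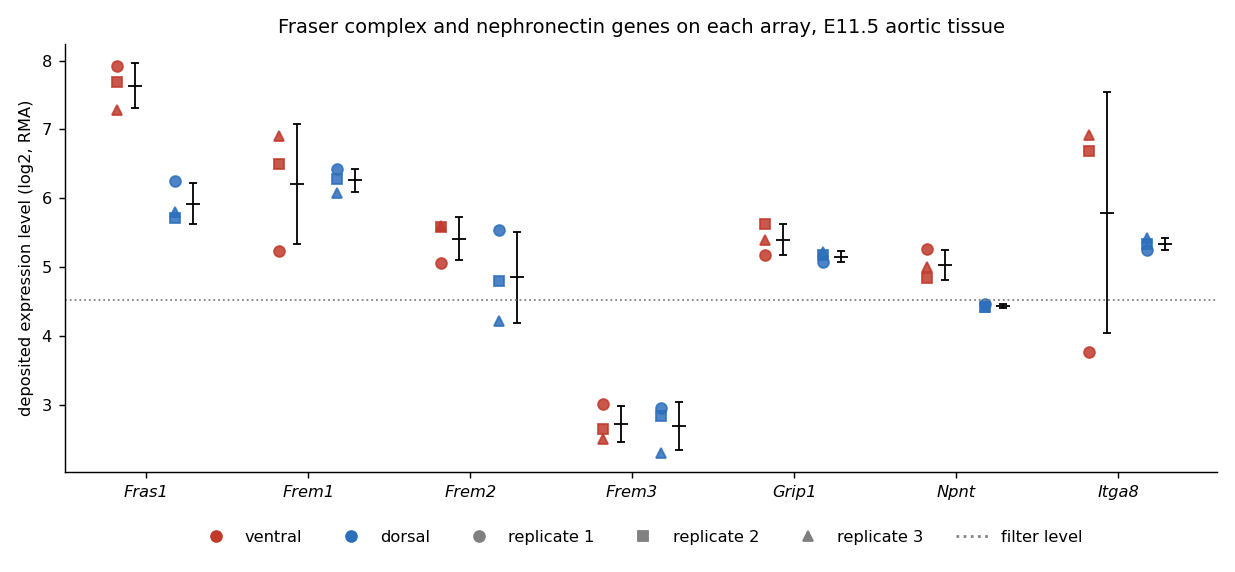
Deposited log2 level of each gene on each array, with ventral arrays (red) left of dorsal arrays (blue), marker shape for the replicate number and black bars for mean ± SD (n = 3). Fras1 and Npnt lie higher on all ventral arrays, while ventral array 1 (circle) is lowest for Itga8 at 3.77 and for Frem1 at 5.23.

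The matrix proteins of the complex come first. Fras1 had log2 levels of 7.93, 7.69 and 7.29 on ventral arrays 1, 2 and 3, against 6.26, 5.71 and 5.80 on dorsal arrays 1, 2 and 3. The lowest ventral array was therefore above the highest dorsal array. Fras1 averaged 7.63 ± 0.32 in ventral and 5.92 ± 0.29 in dorsal tissue (SD, n = 3 each), a log2 difference of 1.71 ± 0.19 (SE of the limma fit). The difference ranked 52 from the top among 12028 genes and was 1.67, 1.98 and 1.48 within the same-numbered pairs 1, 2 and 3. Fras1 no longer passed the threshold when pair 2 was left out (difference 1.58 ± 0.26) or when genes below the filter were fitted too (1.71 ± 0.16). With the replicate numbers ignored it passed on all 6 arrays and also without ventral array 1, while leaving out any other single array ended the call, at differences of 1.61 to 1.89.

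Frem2, which forms the complex together with Fras1 and Frem1, differed less between the tissues. Its levels were 5.06, 5.58 and 5.60 on ventral arrays 1, 2 and 3, against 5.53, 4.80 and 4.22 on dorsal arrays 1, 2 and 3. The groups overlapped, since dorsal array 1 was above ventral array 1. Frem2 averaged 5.41 ± 0.31 in ventral and 4.85 ± 0.66 in dorsal tissue (SD, n = 3 each), and the log2 difference was 0.56 ± 0.35 (SE). It was −0.48 within pair 1, 0.77 within pair 2 and 1.38 within pair 3. Dorsal array 3 was below the filter level, so the size of the pair 3 difference is not exact. Without pair 1 the difference was 1.08 ± 0.26, and without pair 3 it was 0.15 ± 0.34.

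Frem1, a secreted member of the family, gave no common direction. It had levels of 5.23, 6.50 and 6.91 on ventral arrays 1, 2 and 3, against 6.42, 6.28 and 6.08 on dorsal arrays 1, 2 and 3. Ventral array 1 was the lowest of all and ventral arrays 2 and 3 the highest, so that the dorsal values lay inside the ventral range. The means were 6.21 ± 0.87 in ventral and 6.26 ± 0.17 in dorsal tissue (SD, n = 3 each), a log2 difference of −0.05 ± 0.37 (SE). Without pair 1 the sign turned and the difference was 0.52 ± 0.26. Frem3, a further member of the family, had levels of 3.01, 2.65 and 2.50 on the ventral arrays, against 2.96, 2.83 and 2.30 on the dorsal arrays. At this level the signal could not be told from background, and the log2 difference was 0.02 ± 0.15 (SE) when genes below the filter were fitted.

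Grip1, the scaffold that carries Fras1 and Frem2 to the membrane, had levels of 5.17, 5.63 and 5.39 on ventral arrays 1, 2 and 3, against 5.07, 5.17 and 5.22 on dorsal arrays 1, 2 and 3. The groups overlapped, because ventral array 1 was below dorsal array 3. Within each same-numbered pair the ventral value was the higher one, by 0.11, 0.46 and 0.17, and the log2 difference was 0.24 ± 0.18 (SE). Fras1, Npnt and Grip1 were the 3 genes of the set higher in ventral tissue in all pairs, which held for 15.3% of all fitted genes.

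Npnt, the ligand, had levels of 5.264, 4.834 and 5.002 on ventral arrays 1, 2 and 3, against 4.463, 4.416 and 4.422 on dorsal arrays 1, 2 and 3. Each ventral array was above each dorsal array, and each dorsal array was below the filter level. Npnt averaged 5.03 ± 0.22 in ventral and 4.43 ± 0.03 in dorsal tissue (SD, n = 3 each), a log2 difference of 0.60 ± 0.18 (SE), and did not pass the threshold over all genes. With the dorsal values below the filter level, the deposited fold gives no exact ratio of transcript. The SD over the dorsal arrays exceeded that of 1.03% of fitted genes, so the dorsal values were unusually close together. Fras1 was the other gene of the 6 with all ventral arrays above all dorsal arrays. Over all fitted genes 7.5% had this order, 7.88% had the reverse and 15.4% had either, and nothing is read from the members' count, since Npnt was fitted only because of its ventral values.

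Itga8, the receptor subunit, gave the widest spread of the set. Its levels were 3.77, 6.68 and 6.92 on ventral arrays 1, 2 and 3, against 5.25, 5.33 and 5.42 on dorsal arrays 1, 2 and 3. The dorsal arrays lay close together, ventral arrays 2 and 3 above them and ventral array 1 below them. The value on ventral array 1 was also below the filter level, so differences that include it are not exact in size. Itga8 averaged 5.79 ± 1.75 in ventral and 5.33 ± 0.08 in dorsal tissue (SD, n = 3 each), a log2 difference of 0.46 ± 0.57 (SE). The differences within pairs 1, 2 and 3 were −1.48, 1.35 and 1.50. Without pair 1 the difference was 1.42 ± 0.23, and without ventral array 1 and with the replicate numbers ignored it was 1.46 ± 0.18 and passed the threshold. Without pair 3 it was −0.07 ± 0.61, so that the sign for Itga8 rests on which arrays are kept.

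**Figure D2:**
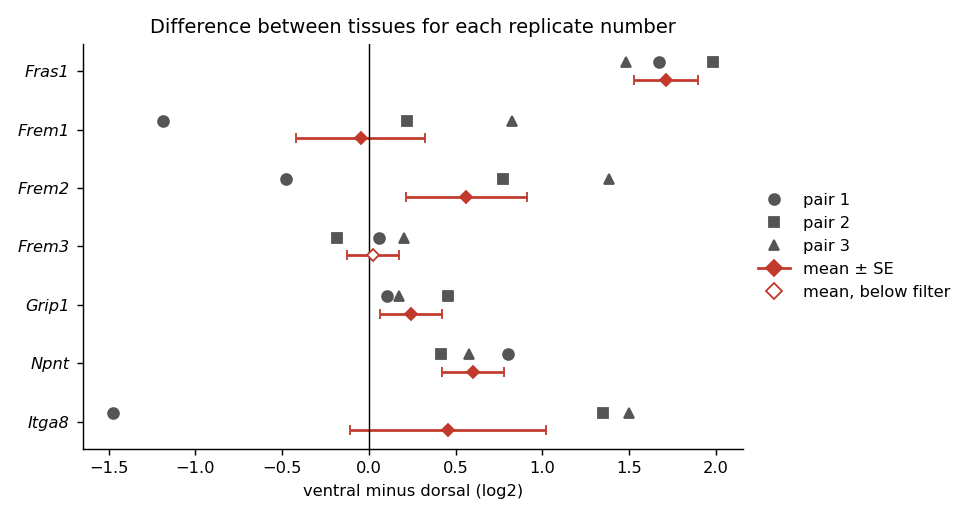
Ventral minus dorsal log2 difference within each same-numbered pair (grey) and its mean ± SE in the limma fit (red, open for Frem3, which was fitted without the filter). Fras1, Npnt and Grip1 are positive in every pair, while Itga8, Frem1 and Frem2 are negative in pair 1 and positive in pairs 2 and 3.

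The spread between arrays of 1 tissue differed widely within the set. Over the ventral arrays the SD of Itga8 exceeded that of 99.7% of fitted genes and the SD of Frem1 that of 97.9%. Over the dorsal arrays the same genes exceeded 12.1% and 36.5%. Itga8 on ventral array 1 was 1.48 (log2) below the lowest of the other 5 arrays, and 10 of the 12028 genes, Itga8 included, showed a gap at least as large on that array. As that Itga8 value was below the filter level, the size of its gap is not exact. Frem1 had a gap of 0.85, reached by 74 genes. Ventral array 1 held 35 genes at least 1 (log2) below all other arrays, while the other 5 arrays held 8 to 25 such genes each. In the upward direction it did not stand out, with 39 genes at least 1 above all other arrays, against 51 on dorsal array 3 and 47 on ventral array 3. Itga8, Frem1 and Frem2 were each lower in ventral tissue in pair 1 and higher in pairs 2 and 3, a pattern of 11.3% of fitted genes. The mean of the 6 fitted smooth muscle markers, each centred on its own mean, was highest where Itga8 was lowest, at 1.49, 0.512 and −0.252 on ventral arrays 1, 2 and 3, against −0.654, −0.0852 and −1.01 on dorsal arrays 1, 2 and 3. Among the ventral arrays, 4 of the 6 were highest on array 1, such as the contractile genes Cnn1 (9.82, 7.91 and 6.83 on arrays 1, 2 and 3) and Acta2 (9.85, 8.44 and 7.07). The other two, Des (4.97, 5.74 and 4.82) and Myocd (4.78, 4.82 and 4.72), were highest on array 2. The centred mean of the 6 fitted markers of coelomic epithelium was highest on ventral array 1 as well, at 0.838, 0.495 and 0.0804 on ventral arrays 1, 2 and 3, against −0.239, −0.555 and −0.619 on dorsal arrays 1, 2 and 3. Of these markers 3 were highest on ventral array 1, with the widest range in Aldh1a2 (7.33, 5.36 and 3.73 on ventral arrays 1, 2 and 3), and the other 3, Wt1, Upk1b and Lhx9, were highest on ventral array 2. The centred means of some other lists instead rose over ventral arrays 1, 2 and 3, as Itga8 and Frem1 did. The Fraser complex partners, described below, had centred means of 0.000344, 0.21 and 0.395 there. Of the 8 fitted partners only Tnc and Hmcn1 rose in that order, and the others did not. The list of integrin ligands, which shares Tnc and Fn1 with the partners, had 0.104, 0.272 and 0.695. Of its 12 fitted genes only Tnc, Postn, Edil3 and Mfge8 rose in that order. The endothelial markers had −0.0021, 0.369 and 0.573, and 5 of the 6 fitted were highest on ventral array 3. The part of these cell types in the Itga8 and Frem1 values was not tested.

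The promoters of Npnt, Itga8 and Frem1 are shown because the first had ventral values above the dorsal ones and the others were low together on ventral array 1. RefSeq windows on GRCm38.p6, from 250 bases before to 50 bases after a transcription start, were matched by symbol for 6 of the 7 genes, with 10 windows in all. The printed windows, for Npnt and Frem1 those farther upstream of 2, are chr3:132950242-132950541, chr2:12301895-12302194 and chr4:83052117-83052416, all on the minus strand, written 5′ to 3′. Capitals mark matches to the E-box CANNTG, which basic helix-loop-helix factors bind, or to the GC box GGGCGG on either strand.
Npnt: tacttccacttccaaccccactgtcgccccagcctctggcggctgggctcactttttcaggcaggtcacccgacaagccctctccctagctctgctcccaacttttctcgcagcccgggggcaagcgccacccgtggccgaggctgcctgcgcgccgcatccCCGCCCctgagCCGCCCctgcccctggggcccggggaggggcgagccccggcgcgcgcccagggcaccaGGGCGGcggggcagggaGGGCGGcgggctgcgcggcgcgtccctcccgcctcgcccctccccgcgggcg
Itga8: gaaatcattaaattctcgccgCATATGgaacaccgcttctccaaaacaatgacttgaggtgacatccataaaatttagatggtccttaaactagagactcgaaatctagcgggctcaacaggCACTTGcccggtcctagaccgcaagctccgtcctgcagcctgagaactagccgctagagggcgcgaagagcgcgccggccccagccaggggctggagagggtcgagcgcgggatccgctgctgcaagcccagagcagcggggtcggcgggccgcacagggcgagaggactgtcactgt
Frem1: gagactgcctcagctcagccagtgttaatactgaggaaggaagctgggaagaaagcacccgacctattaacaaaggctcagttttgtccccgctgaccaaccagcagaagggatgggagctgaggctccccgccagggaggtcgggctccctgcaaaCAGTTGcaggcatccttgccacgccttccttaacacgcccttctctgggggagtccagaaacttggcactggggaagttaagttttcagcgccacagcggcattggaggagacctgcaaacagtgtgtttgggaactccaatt
The Npnt window held 4 GC boxes and 0 E-boxes, with a GC content of 76.7% and 32 CpG dinucleotides. A second Npnt window and a second Frem1 window, not printed, held 3 E-boxes each. The Itga8 window held 2 E-boxes and 23 CpG dinucleotides at a GC content of 59.0%, and the Frem1 window 1 E-box and 8 CpG dinucleotides at 55.7%. Over all 32851 windows the median GC content was 52.7% with 7 CpG dinucleotides, 72.3% held an E-box and 35.7% a GC box. The TATA box TATAAA, searched on both strands, was in none of the 3 windows printed and in 13.6% of all windows. A match describes letters in a window and says nothing of binding.

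The genes whose 6 values were most like each member were found by the root mean square difference after each gene was centred on its own mean. For Fras1 they were Pcdhga7, a gamma protocadherin that shares constant exons with its cluster, Pde5a, a phosphodiesterase of smooth muscle, and the calmodulin-like Calml4, at root mean square differences of 0.189 to 0.233. For Npnt they were Colq, Cald1, the actin-binding caldesmon, and the corepressor gene Runx1t1, at 0.0894 to 0.0962. For Itga8 they were Lrrn3, the cadherin gene Cdh10 and the phospholipase gene Plcb4, at 0.313 to 0.393. These 3 genes were lowest on ventral array 1, which follows from choosing them by likeness to Itga8 and is no further finding. Lrrn3 was at 3.81 there and at 7.05 and 6.78 on ventral arrays 2 and 3, against 5.38, 4.73 and 5.64 on the dorsal arrays. For Frem1 they were the coactivator gene Tada3, Mdm1 and the phospholipase gene Pnpla8, at 0.132 to 0.163. For Frem2 they were Zfp52, Btg3 and the antisense RNA Gnasas1, at 0.173 to 0.189. For Grip1, which varied little, they were the potassium channel gene Kcnh2, the telomere gene Terf2 and the kinase gene Sik1, at 0.0295 to 0.0529. Among the members themselves, Frem1 stood at 0.597 from Itga8, where 23 fitted genes were nearer to Itga8 but 7269 nearer to Frem1. Grip1 (0.468) and Frem2 (0.531) were nearer to Frem1 than Itga8 was. Npnt stood at 0.601 from Fras1, where 232 fitted genes were nearer to Fras1 but 10499 nearer to Npnt. Grip1 (0.316) and Frem2 (0.472) were nearer to Npnt than Fras1 was. These are likenesses over 6 arrays that share tissue and replicate number, given with no test.

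**Figure D3:**
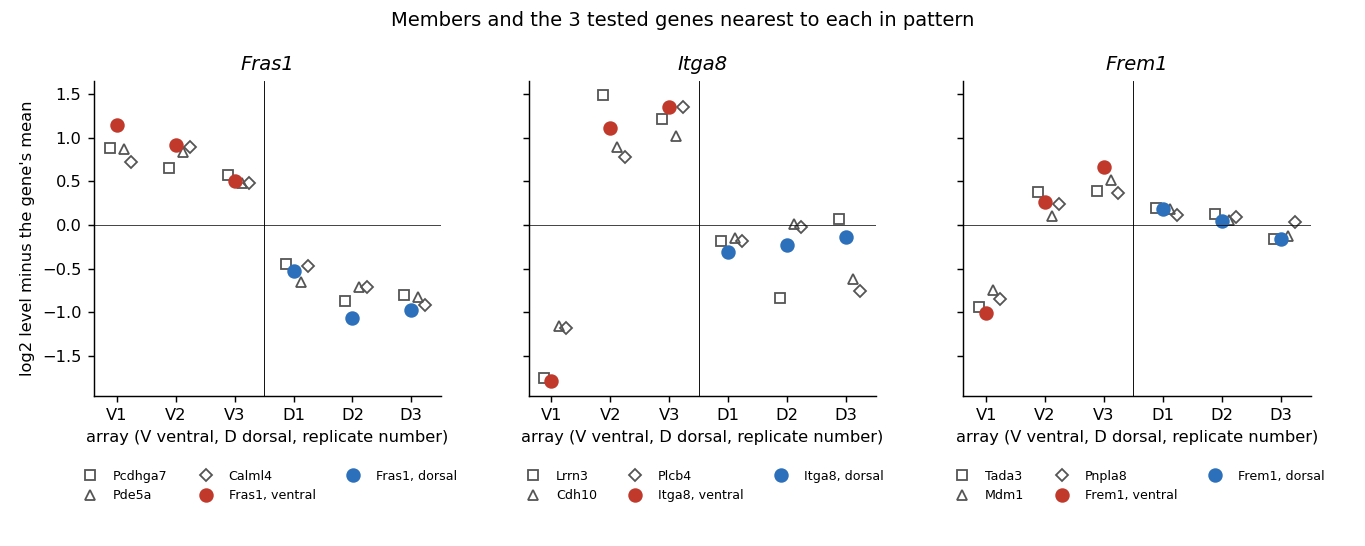
Log2 level minus the gene's own mean on ventral arrays V1 to V3 and dorsal arrays D1 to D3 for Fras1, Itga8 and Frem1 (filled circles) and the 3 fitted genes nearest to each (open symbols). Fras1 and its neighbours in pattern are positive on ventral and negative on dorsal arrays, while the Itga8 and Frem1 panels have their lowest values on V1. The open symbols share each pattern because they were chosen by it.

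Genes next to the members on the chromosome were read in the same way. The nearest named gene on each side of each member gave 14 neighbours, 10 of which were fitted. None of the 10 passed in limma (lowest adjusted p = 0.411; unadjusted p under 0.05 for 1), with log2 differences of −0.56 ± 0.24 (SE) for Mindy3, next to Itga8, to 1.11 ± 0.41 for Anxa3, next to Fras1. Anxa3, an annexin gene, had levels of 8.36, 7.38 and 7.18 on ventral arrays, against 5.90, 6.85 and 6.83 on dorsal arrays (adjusted p = 0.411). All ventral values of Anxa3 were above the dorsal ones. On the other side of Fras1, Mrpl1, a mitochondrial ribosomal protein gene, had a log2 difference of −0.10 ± 0.17 (adjusted p = 0.895). The neighbours of Npnt, Tbck and Gstcd, had differences of 0.17 ± 0.25 and −0.02 ± 0.25 (adjusted p = 0.885 and 0.990). Those of Grip1 were Cand1 (0.06 ± 0.18, adjusted p = 0.945) and Helb (−0.12 ± 0.23, adjusted p = 0.920). Ankrd16 next to Itga8 (0.03 ± 0.17), Ufm1 next to Frem2 (−0.29 ± 0.21) and Smarca5 next to Frem3 (−0.08 ± 0.20) had adjusted p of 0.978, 0.707 and 0.940. Of the neighbours below the filter, Hhip, a hedgehog antagonist gene next to Frem3, had levels of 3.33, 3.63 and 3.93 on ventral arrays, against 5.36, 5.23 and 3.58 on dorsal arrays. Cer1 and Ttc39b next to Frem1 and Stoml3 next to Frem2 were below it too.

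The partners of these proteins were read from 7 lists of pathway genes, of which 81 different genes were fitted and 0 passed in limma. An unadjusted p under 0.05 was found for 17 of the 81, against 1292 of all 12028. Nothing is read from this count, since the lists were chosen with earlier results of these data known. In the Fraser complex list, 8 of 11 genes were fitted, 6 with positive and 2 with negative log2 differences and a median of 0.28. Tnc, the matrix glycoprotein tenascin C, had levels of 7.68, 9.21 and 9.39 on ventral arrays, against 6.56, 6.10 and 6.33 on dorsal arrays. The Tnc groups did not overlap, yet its log2 difference of 2.43 ± 0.40 (SE) did not pass in limma (adjusted p = 0.0824, with 0.00297 to 0.243 over the alternatives). Hmcn1, encoding the matrix protein hemicentin 1, had levels of 5.63, 6.59 and 7.20 on ventral arrays, against 7.26, 7.26 and 6.98 on dorsal arrays, with ventral array 1 again the lowest (−0.70 ± 0.34, adjusted p = 0.543). The list also held Fbln2 (0.54 ± 0.18, adjusted p = 0.348). Vwa2, whose protein AMACO binds the complex, was below the filter, as were Grip2 and Hmcn2.

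Ligands of integrins, only some of them recognised through the tripeptide RGD, were listed together with relatives of nephronectin. This list gave 12 fitted genes, 10 positive and 2 negative, with a median of 0.43 and none past the threshold. Egfl6, the closest relative of nephronectin and likewise a ligand of α8β1, had levels of 6.85, 6.73 and 6.66 on ventral arrays, against 5.50, 4.95 and 5.84 on dorsal arrays. Its groups did not overlap, and its log2 difference was 1.32 ± 0.23 (SE; limma adjusted p = 0.0938). Postn, encoding periostin, differed by 1.77 ± 0.26 (adjusted p = 0.0631). Fn1, the gene of fibronectin, differed by 0.33 ± 0.24 (adjusted p = 0.707). Among 8 fitted integrin subunits the median was 0.34. Itgb1, the partner of the α8 subunit, had levels of 8.82, 9.01 and 9.11 on ventral arrays, against 8.54, 8.60 and 8.76 on dorsal arrays, and differed by 0.35 ± 0.17 (adjusted p = 0.543). Itgb1 thus had no low value on ventral array 1, where Itga8 was lowest. Itga5 (0.59 ± 0.22), Itgb8 (0.36 ± 0.18) and Itga4 (−0.46 ± 0.30) did not pass either, with adjusted p of 0.404, 0.563 and 0.672.

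Genes of the adhesion machinery that integrins engage inside the cell gave 13 fitted genes, log2 differences of −0.17 to 0.33 and a median of 0.18. Zyx (0.33 ± 0.21), Ilk (0.33 ± 0.21) and Tns1 (0.32 ± 0.19) had adjusted p of 0.653, 0.653 and 0.636. Cargo and partners of Grip1 gave 13 fitted genes, 8 positive and 5 negative, with a median of 0.03. Gria3, a glutamate receptor subunit gene, differed by 1.59 ± 0.28 (adjusted p = 0.0966), the motor gene Kif5c by −1.14 ± 0.28 (0.202) and the liprin gene Ppfia2 by −0.75 ± 0.17 (0.179). For each of these 3 the groups did not overlap. The basement membrane list gave 16 fitted genes, 12 positive and 4 negative, with a median of 0.35. In 8 of them all ventral arrays lay above the dorsal ones, an order that 7.5% of all fitted genes showed. Nothing is read from this count, since the list was chosen with earlier results of these data known. Col15a1 (4.36, 4.42 and 4.24 on dorsal arrays) was also fitted only because of its ventral values. Lama2 (0.82 ± 0.29), Dag1 (0.68 ± 0.18) and Col15a1 (0.57 ± 0.24) had the greatest differences in this list and did not pass (adjusted p = 0.369, 0.239 and 0.468).

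The kidney induction list, which holds genes around the nephronectin and Gdnf step, gave 13 fitted genes, 7 positive and 6 negative, with a median of 0.09. Gdnf itself, the ligand of the Ret receptor, was below the filter, with levels of 2.74, 3.02 and 3.14 on ventral arrays, against 2.66, 3.04 and 2.74 on dorsal arrays. Wt1, a factor of coelomic epithelium and kidney mesenchyme, differed by 1.29 ± 0.20 (adjusted p = 0.0715), Sall1 by −0.84 ± 0.42 (0.553) and Six2 by −0.76 ± 0.44 (0.624).

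**Figure D4:**
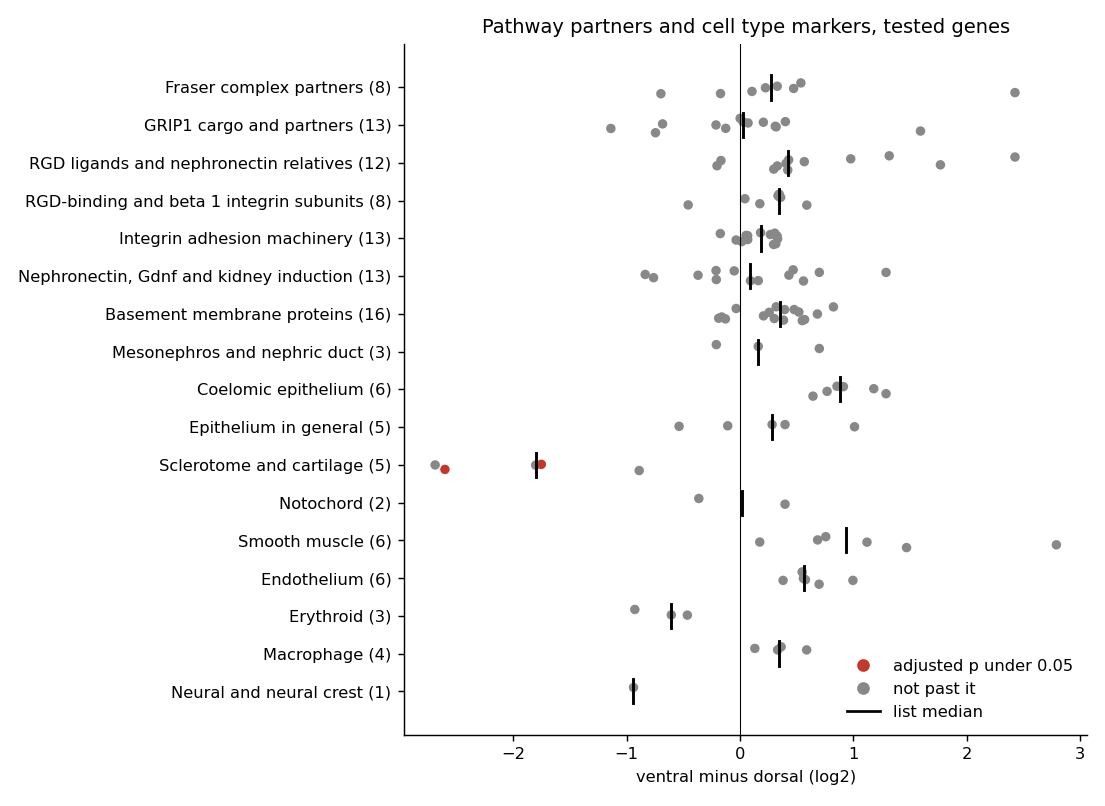
Log2 difference, ventral minus dorsal, of every fitted gene in the 7 pathway lists and 10 cell type lists, with the number fitted in brackets, a vertical bar at each list's median and red for genes past an adjusted p of 0.05. Pax1 and Col2a1 in the sclerotome list are the 2 red points, and the other lists hold none.

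Cell type markers bear on what each cut contained. All 5 fitted genes of sclerotome and cartilage had ventral arrays below the dorsal ones, as had 7.88% of all fitted genes, and 2 of them fell in ventral tissue, Pax1 (−2.60 ± 0.24, adjusted p = 0.0183) and Col2a1 (−1.75 ± 0.19, adjusted p = 0.0258). Neither passed when genes below the filter were fitted (0.0756 and 0.0816), and Col2a1 did not pass without pair 1 (0.0513) or pair 2 (0.0557), nor, with the replicate numbers ignored, without ventral array 2 (0.0577) or dorsal array 1 (0.0519). The sclerotome factors Pax9 (−2.69 ± 0.51) and Nkx3-2 (−1.80 ± 0.42) did not pass (adjusted p = 0.118 and 0.185). Pax1 on ventral arrays 1 and 3 (4.47 and 4.21) and Pax9 on ventral array 2 (4.19) were below the filter level. The sizes of the Pax1 and Pax9 differences are therefore not exact. Of 8 markers of coelomic epithelium, a tissue that lines the body cavity, 6 were fitted. All 6 had positive log2 differences with a median of 0.88. Msln (mean 3.81 in ventral and 3.83 in dorsal tissue) and Nr5a1 (3.99 and 3.81) were below the filter. Upk3b differed by 1.18 ± 0.17 (adjusted p = 0.0631) and Wt1 as given above, both with ventral arrays above dorsal ones, while Lhx9 (0.91 ± 0.47, adjusted p = 0.563) overlapped. Of 8 general epithelial markers 5 were fitted, 3 positive and 2 negative, with a median of 0.28, and none passed. Krt18 (1.01 ± 0.27, adjusted p = 0.241) and Krt8 (0.40 ± 0.48, adjusted p = 0.850), keratins of simple epithelia, were highest on ventral array 3. Esrp1, a splicing factor of epithelia, ran the other way (−0.54 ± 0.17, adjusted p = 0.328) and was highest on dorsal array 3 at 5.91, and Epcam was also negative (−0.11 ± 0.31, adjusted p = 0.945). The list's centred mean was −0.143, −0.592 and 1.05 on ventral arrays 1, 2 and 3, against 0.0939, −0.428 and 0.0203 on dorsal arrays 1, 2 and 3. Of 8 markers of mesonephros and nephric duct 5 were below the filter, namely Pax2, Pax8, Lhx1, Cdh16 and Emx2, although Emx2 reached 7.98 on dorsal array 3. The fitted ones were Osr1 (0.70 ± 0.42), Ret (−0.21 ± 0.33) and Gata3 (0.16 ± 0.26), with adjusted p of 0.640, 0.891 and 0.893. The notochord genes Noto and Foxa2 were below the filter too, and the 2 fitted genes of that list, Krt8 and Shh (−0.36 ± 0.25, adjusted p = 0.686), had a median of 0.02. The 1 fitted neural gene, Tubb3, differed by −0.95 ± 0.24 (adjusted p = 0.214). Medians were 0.94 for smooth muscle, 0.57 for endothelium, 0.35 for macrophage and −0.61 for erythroid markers, with no gene past the threshold in these lists. Kdr (1.00 ± 0.20), Cldn5 (0.70 ± 0.18) and Pecam1 (0.58 ± 0.27) of endothelium had adjusted p of 0.121, 0.213 and 0.524. Acta2 (1.47 ± 0.34), Des (1.12 ± 0.18) and Cnn1 (2.79 ± 0.50) of smooth muscle had adjusted p of 0.185, 0.0721 and 0.1004. Alas2 (−0.93 ± 0.26), Klf1 (−0.61 ± 0.18) and Hbb-bh1 (−0.46 ± 0.18) of erythroid cells had adjusted p of 0.264, 0.293 and 0.424, and Adgre1 (0.59 ± 0.18), Csf1r (0.36 ± 0.22) and Mrc1 (0.33 ± 0.17) of macrophages 0.310, 0.650 and 0.567. Outside the pathway lists, 20 of 36 fitted marker genes had an unadjusted p under 0.05 in limma, against 1292 of all 12028 fitted genes. These lists were chosen with earlier results of these data known, and Upk1b and Des passed the filter only through their ventral values. The counts of small p and of groups that did not overlap therefore support nothing. The part of these cell types in the Fras1 and Npnt values was not tested.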

How the data were processed

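Gene expression was measured on 6 Affymetrix Mouse Gene ST arrays, 3 ventral and 3 dorsal. The values are log2 levels as deposited by the authors, made with Expression Console and RMA (background correction, quantile normalization, probe summary) according to the submitters' processing notes. The software version and genome build were not given in the sources used here. Amplification of picogram RNA, per the labels' protocols, can distort weak against strong transcripts. Array medians were 4.49 to 4.55, and correlations between arrays over all probe sets were 0.956 to 0.976 (across genes, not independent). Precision is limited by having 3 arrays per tissue.

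Of 24973 probe sets 24015 had 1 gene symbol, 958 are unnamed here and 0 had several. The ventral minus dorsal difference was estimated by limma 3.58.1 under R 4.3.3 (lmFit, then eBayes, two-sided, Benjamini-Hochberg; the replicate number entered as a fixed block) over the 12028 named genes with a mean at or above 4.52, at a threshold of 0.05. All adjusted p are limma's. The block follows the labels, which say that both tissues came from the same embryos but do not tie numbers to embryos. Deviations of same-numbered arrays correlated by 0.0992, 0.0763 and 0.226, a weak likeness. Differently numbered arrays were not set beside them, so these values do not show whether the numbers mark pairs. The script was tested on simulated data.

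The members and the 17 gene lists were chosen with earlier results of these data known. Of 167 list entries 155 were named in the platform table and 117 different genes were fitted. Genes named in the text were the members, their neighbours in the RefSeq gene table, the genes nearest in pattern (predicted genes, clone names and small RNAs left out), list genes past the threshold and the 3 of largest absolute difference in each list. Further list genes named for their role or their low level (among them Itgb1, Fn1, Gdnf, Vwa2, Epcam, Aldh1a2, Upk1b, Myocd and the markers below the filter) were chosen after their values were seen. Alternatives were no block, no filter, a filter at the 60th percentile, arrays shifted to 1 median, cyclic loess, an intensity trend and leaving out arrays.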

Additional observations from a re-analysis of the deposited data

How the results depend on the processing

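Without the replicate block 59 genes passed in place of 62, and Fras1 still did. Without the filter 10 passed (8 higher and 2 lower in ventral tissue), with 0 of the members and 0 list genes. With an intensity trend in eBayes 94 passed (56 higher, 38 lower), with 4 list genes, Tnc (adjusted p = 0.0476) and Postn (0.0307) among them. With the filter at the 60th percentile 16 were lower. Without the filter more genes were tested; the cause was otherwise not tested. Leaving out pairs or, without the block, single arrays gave 12 to 104 genes in all, 8 to 74 higher and 4 to 30 lower, with 0 to 2 members and 1 to 4 list genes. The highest count, 104, came without ventral array 1, and the members were then Fras1 and Itga8. No neighbour passed under any of the 15 alternatives, although neighbours below the filter were fitted only in the alternative without it. No direction turned under the alternatives that kept all arrays. Of the 88 genes followed, those below the filter were not fitted with arrays left out. Among the others, leaving out arrays turned the sign of 18. Their log2 differences were −0.48 to 0.52 for Frem1, −0.11 to 1.46 for Itga8, −0.061 to 0.52 for Gata3, −0.72 to 0.12 for Ret, −0.57 to 0.15 for Epcam and −0.31 to 1.07 for Krt8. Among neighbours they were −0.23 to 0.084 for Smarca5, −0.029 to 0.20 for Cand1, −0.38 to 0.12 for Helb, −0.0095 to 0.49 for Tbck, −0.25 to 0.31 for Gstcd and −0.11 to 0.15 for Ankrd16. Among genes nearest in pattern they were −0.45 to 0.39 for Tada3, −0.44 to 0.34 for Mdm1, −0.42 to 0.24 for Pnpla8, −0.21 to 1.73 for Lrrn3, −0.063 to 1.26 for Cdh10 and −0.094 to 1.45 for Plcb4. Values near or below the filter level, such as those of Npnt in dorsal tissue and of Frem3, can be limited by background. The background level was not measured here.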
